A study of Mus musculus with 4 samples.

Results

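The transcripts described here are those of 10 genes of the enteroendocrine lineage, the hormone-secreting cells scattered through the intestinal epithelium. They comprise the transcription factors Neurog3, Neurod1, Insm1, Pax4, Pax6, Nkx2-2 and Isl1, the granins Chga and Chgb and the prohormone convertase Pcsk1. The genes were listed by name, and all 10 of them were measured among 12393 genes in all. RNA was hybridised to 4 Affymetrix mouse arrays, 1 per sample. The 2 stem arrays held RNA of Lgr5(hi) stem cells, isolated from wild-type mice on a flow sorter. The 2 enterocyte arrays held RNA of EDTA-isolated villus cells from mice in which Atoh1 had been conditionally knocked out in the intestinal epithelium. All mice were C57BL/6, aged 4 to 6 weeks, and the tissue was proximal intestinal epithelium. The labels of all 4 samples, wild-type ones included, give tamoxifen at 1 mg a day over 5 days and a further wait of 5 days. The promoter that drove the recombinase, the reporter used for the sort and the number of animals behind each sample are not given in the sources used here. P-values therefore measure the spread between these samples only.

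Enteroendocrine cells arise from crypt progenitors in which Notch signalling is low and Atoh1, a transcription factor required by secretory cells, is active. Neurog3 is then switched on for a short time and commits the cell to the endocrine fate. It acts ahead of Neurod1, Insm1, Pax4, Pax6, Nkx2-2 and Isl1, which drive maturation and the choice among hormone types. Mature cells store peptide hormones in dense-core granules, which the granins help to build, and Pcsk1 cuts hormone precursors inside those granules. The enterocyte group carries the Atoh1 knockout and the stem group does not. Cell type, genotype and isolation changed together between the groups and cannot be told apart.

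The promoter windows of the granins are shown because both granins were lower in the enterocyte arrays and their windows share a short element. TGACGT is the core of the cyclic AMP response element, a site known in granin promoters. Windows came from RefSeq (GRCm38.p6), and the 250 bases upstream of the start were searched on both strands for TGACGT and for CAGATG, an E-box of the kind that neurogenin and NeuroD factors bind. The palindrome TGACGTCA was counted as 2 overlapping matches. Of the 10 genes 8 had a window, and TGACGT was found for 5 of these 8, namely Chga, Chgb, Isl1, Pax6 and Pcsk1. Counted by window, 6 of the 9 windows of these genes held it, beside 6.46% of all 32817 windows of that length. The granin windows, shown because they share the element, are among these 6, as are 2 windows of Pax6. The comparison is therefore no test of enrichment. CAGATG was found for Nkx2-2 alone, in 1 of the 9 windows, against 14.5% of all windows. The Pcsk1 and Nkx2-2 windows and a further Pax6 window do not end at the annotated start of the gene. The 4 windows below with a match to TGACGT, and that of Neurog3, which had no match to either motif, end at the annotated start of the gene. They are written 5′ to 3′ on the strand of the gene, with TGACGT matches in capitals.
Chga, chr12:102554691-102554940, plus strand: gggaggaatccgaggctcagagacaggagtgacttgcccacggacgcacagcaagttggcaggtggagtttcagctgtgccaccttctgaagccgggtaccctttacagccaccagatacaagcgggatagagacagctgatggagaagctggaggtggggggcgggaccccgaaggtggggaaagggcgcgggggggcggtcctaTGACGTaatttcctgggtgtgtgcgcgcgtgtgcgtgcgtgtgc
Chgb, chr2:132781392-132781641, plus strand: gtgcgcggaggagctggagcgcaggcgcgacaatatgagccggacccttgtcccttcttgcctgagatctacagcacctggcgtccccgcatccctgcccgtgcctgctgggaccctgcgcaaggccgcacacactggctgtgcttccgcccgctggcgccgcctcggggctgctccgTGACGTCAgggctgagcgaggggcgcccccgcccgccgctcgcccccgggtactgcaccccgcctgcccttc
Isl1, chr13:116309689-116309938, minus strand: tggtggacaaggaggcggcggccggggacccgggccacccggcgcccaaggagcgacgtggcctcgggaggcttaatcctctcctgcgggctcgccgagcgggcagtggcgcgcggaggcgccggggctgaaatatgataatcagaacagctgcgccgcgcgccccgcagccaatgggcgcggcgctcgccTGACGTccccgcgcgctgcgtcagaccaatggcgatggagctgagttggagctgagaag
Pax6, chr2:105668646-105668895, plus strand: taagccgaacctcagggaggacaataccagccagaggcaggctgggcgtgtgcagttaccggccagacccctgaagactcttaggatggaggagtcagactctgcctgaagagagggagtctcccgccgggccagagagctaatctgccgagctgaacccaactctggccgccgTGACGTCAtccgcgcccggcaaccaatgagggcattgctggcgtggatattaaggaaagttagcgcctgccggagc
Neurog3, chr10:62132840-62133089, plus strand: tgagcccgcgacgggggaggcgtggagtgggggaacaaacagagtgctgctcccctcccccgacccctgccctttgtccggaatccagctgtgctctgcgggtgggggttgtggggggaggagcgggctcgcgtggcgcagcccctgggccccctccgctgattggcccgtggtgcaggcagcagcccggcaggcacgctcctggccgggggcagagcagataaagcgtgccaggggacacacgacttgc
Counted from the first base in capitals, the element began 44 bases upstream of the Chga start, 72 bases upstream of the Chgb start, 59 bases upstream of the Isl1 start and 76 bases upstream of the Pax6 start. Chga, Chgb and Isl1 fell in the enterocyte arrays, whereas Pax6 and Pcsk1, whose windows also held the element, did not pass the test. Neurog3, Neurod1 and Nkx2-2 fell as well, and their windows held no TGACGT. A match of letters is a description and shows no binding.

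The 10 listed endocrine transcripts were lower in the enterocyte arrays as far as they differed. Of the 10 genes, 7 fell and 0 rose at an adjusted p under 0.05 (limma, Benjamini-Hochberg over all 12393 genes), against 22.4% of all genes lower and 18.2% higher. At an unadjusted p under 0.05 (limma) the counts for the 10 genes were likewise 7 lower and 0 higher. Of all 12393 genes, 3297 were then lower and 2739 higher. The median log2 difference, enterocyte minus stem, was -2.14 over the 10 genes and -0.00261 over all genes. Both stem arrays lay above both enterocyte arrays in 8 of the 10 genes, as in 34.8% of all genes. The reverse order held for 0 of them and for 30.5% of all genes. A smaller number of endocrine cells and less RNA per cell cannot be told apart in such bulk samples. The calls for the 10 genes depended on having both stem arrays, and some of them on having both enterocyte arrays. The median difference of the 10 genes was -2.37 without stem replicate 1 and -1.97 without stem replicate 2. It was -2.18 without enterocyte replicate 1 and -2.27 without enterocyte replicate 2.

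**Figure D1:**
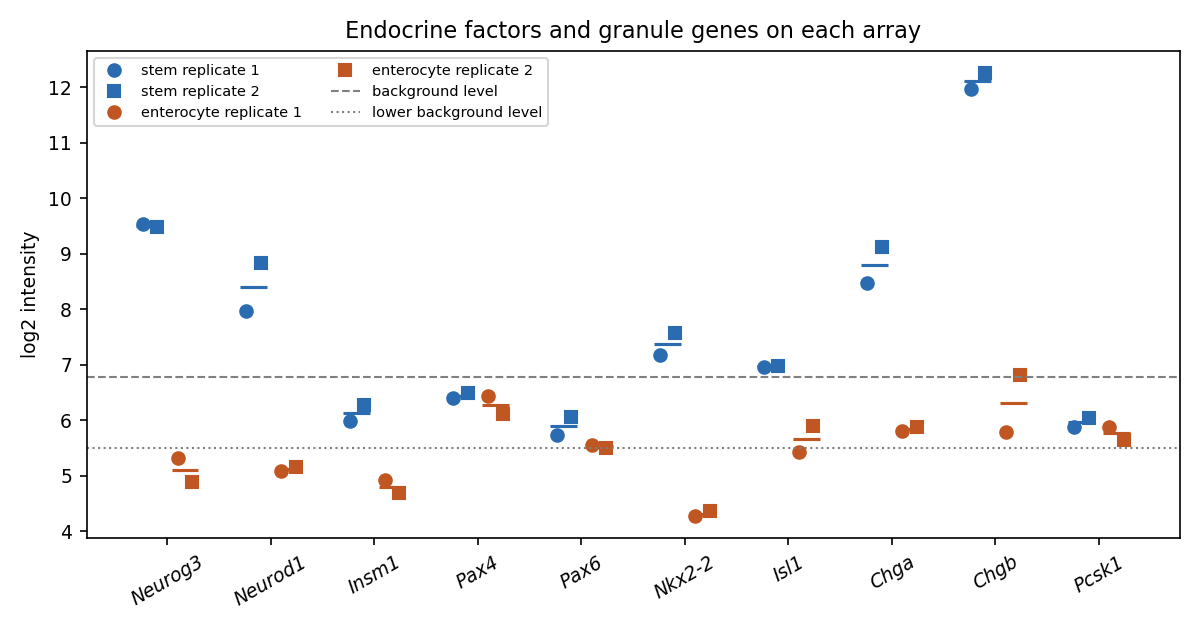
Log2 intensity of the 10 genes (x axis) on each of the 4 arrays (y axis), with circles for replicate 1, squares for replicate 2 and short bars for the group means. The dashed and dotted lines mark background levels of log2 6.78 and 5.50, and the stem values of 6 genes lie above the dashed line.

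A level of background was taken from genes of other organs, as the 90th percentile of the mean of 28 such genes, an intensity of 109.9 (log2 6.78). It is a high mark, near the array medians of 102.4 to 110.6, so a value below it does not show absence. The 75th percentile, used after the values were seen, was 45.2 (log2 5.50). On both stem arrays 6 of the 10 genes lay above the higher level, near the 55.2% of all genes that did. On both enterocyte arrays 0 of the 10 lay above the higher level, beside 52.8% of all genes. Insm1, Pax4, Pax6 and Pcsk1 were not above it on any array. Where the enterocyte mean lay below the level and the stem mean above it, a fold is given as a lower bound, with each enterocyte array raised to at least the level. Levels of different genes come from different probe sets and were not compared.

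Neurog3, the factor that commits cells to the endocrine fate, had intensities of 742 and 717 on the stem arrays. On the enterocyte arrays it had 40.1 and 29.5, below either background level. Both stem arrays were thus far above both enterocyte arrays, and the stem replicates lay close together. Neurog3 was at least 6.63-fold lower, or at least 16.1-fold with the lower background level. Its log2 difference was -4.41 ± 0.18 (SE, n = 2 arrays per group; limma adjusted p = 0.00305), with a 95% interval from -4.97 to -3.85.

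Neurod1, a basic helix-loop-helix factor downstream of Neurog3, had intensities of 252 and 455 on the stem arrays. It had 34.1 and 35.6 on the enterocyte arrays. The stem replicates differed by 0.85 on the log2 scale and the enterocyte replicates by 0.06, and the groups did not overlap. The fall in Neurod1 was at least 3.08-fold, or at least 7.48-fold with the lower level (a log2 difference of -3.28 ± 0.34 SE; limma adjusted p = 0.00912).

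Nkx2-2, a homeodomain factor needed for several hormone types, had intensities of 145.5 and 190.7 on the stem arrays and 19.4 and 20.5 on the enterocyte arrays. The enterocyte values lay under both background levels, and the groups stood well apart. Nkx2-2 was lower by at least 1.52-fold, or by at least 3.68-fold with the lower level (a log2 difference of -3.06 ± 0.16 SE; limma adjusted p = 0.00368).

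Insm1, a zinc-finger factor of endocrine differentiation, was dim on every array. Its intensities were 63.3 and 77.9 on the stem arrays and 30.3 and 25.7 on the enterocyte arrays. The groups did not overlap, yet no fold is given at the higher background level, which all 4 values miss; with the lower level Insm1 was at least 1.55-fold lower. The log2 difference was -1.33 ± 0.16 SE (limma adjusted p = 0.0118).

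Isl1, a LIM-homeodomain factor, had intensities of 124.9 and 126.9 on the stem arrays, just above the higher level. On the enterocyte arrays it had 43.2 and 59.4. The stem replicates were nearly equal and the enterocyte replicates were not, but all enterocyte values lay under all stem values. Isl1 was lower by at least 1.15-fold and by 2.48-fold as measured, at a log2 difference of -1.31 ± 0.19 (SE; limma adjusted p = 0.0171).

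The paired-box genes did not pass the test. Pax4, which acts early in several endocrine lineages, had intensities of 84.5 and 89.7 on the stem arrays and 87.1 and 69.4 on the enterocyte arrays. The groups overlapped, with a log2 difference of -0.16 and a 95% interval from -0.60 to 0.27 (limma adjusted p = 0.441). Pax6, an activator of hormone genes, had 53.3 and 66.7 against 47.3 and 45.2. Both Pax6 stem values lay above both enterocyte values, at a log2 difference of -0.37 with an interval from -0.79 to 0.06 (limma adjusted p = 0.141). For the measured values these intervals leave room for falls of up to 0.60 and 0.79 on the log2 scale. Both genes lay below the higher background level on every array, so the intervals do not bound the fall in RNA.

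Chgb, chromogranin B, fell. Its intensities were 4012 and 4910 on the stem arrays and 55.5 and 113.5 on the enterocyte arrays. Enterocyte replicate 2 was just above the higher background level and enterocyte replicate 1 was below it, a gap of 1.03 on the log2 scale. Chgb was thus lower by at least 39.7-fold. Its log2 difference was -5.81 ± 0.42 (SE; limma adjusted p = 0.00534), with a 95% interval from -7.11 to -4.51. The difference was -6.32 without enterocyte replicate 2 and -5.29 without enterocyte replicate 1, both past the threshold.

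Chga, chromogranin A, the usual marker of endocrine cells, had intensities of 358 and 558 on the stem arrays. It had 55.9 and 59.2 on the enterocyte arrays. The spread was larger between the stem replicates than between the enterocyte replicates, and the groups did not overlap. The fall in Chga was at least 4.06-fold, and 7.77-fold as measured. The log2 difference was -2.96 ± 0.26 (SE; limma adjusted p = 0.00693).

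Pcsk1, the convertase, did not pass the test, with intensities of 59.2 and 66.3 on the stem arrays and 59.2 and 49.98 on the enterocyte arrays. Stem replicate 1 and enterocyte replicate 1 held the identical deposited value, so the groups touched. The log2 difference was -0.20 with a 95% interval from -0.59 to 0.18 (limma adjusted p = 0.312). No Pcsk1 value lay above the higher background level.

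**Figure D2:**
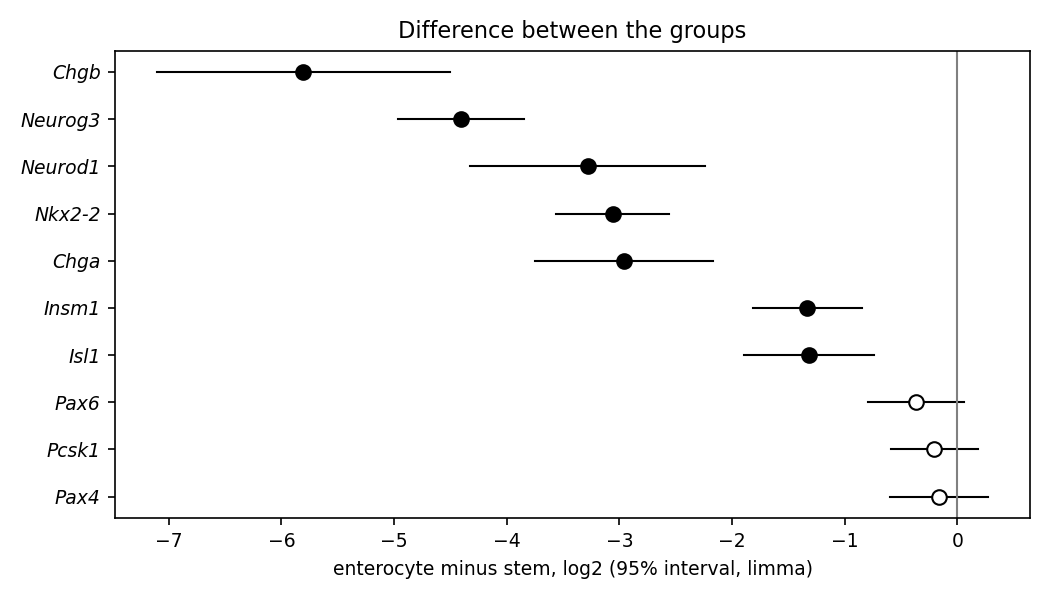
Log2 difference, enterocyte minus stem (x axis), for each of the 10 genes, with 95% intervals from limma and n = 2 arrays per group. Filled points passed an adjusted p under 0.05 and open points did not. The differences as measured run from -5.81 for Chgb to -0.16 for Pax4, most of them limited by background on the enterocyte arrays, and the intervals of Pax6, Pcsk1 and Pax4 include 0.

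The sizes of these differences were not ranked, because the enterocyte values of 9 of the 10 genes lay below the higher background level on both arrays and those of Chgb on 1 array. The 4 genes that were above the higher background level on no array were Insm1, Pax4, Pax6 and Pcsk1, and 3 of these did not pass the test.

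For Neurog3, Neurod1, Isl1 and Pax6 more than 1 probe set was present, and the brightest was used. A second Neurog3 probe set was dim throughout, at 26.4 and 31.8 on the stem arrays and 16.1 and 17.7 on the enterocyte arrays. It too was lower in enterocytes, by only -0.78 (log2; limma adjusted p = 0.0322 with the dimmest probe set of each gene). The size of the Neurog3 difference therefore rested on its bright probe set. The second Neurod1 probe set gave -3.45, near the -3.28 of the first.

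Isl1 differed more on its second probe set. There it read 119.1 and 142.5 on the stem arrays but 22.3 and 25.0 on the enterocyte arrays, a log2 difference of -2.46 against -1.31. On either probe set both stem values lay above both enterocyte values. Pax6 had 5 probe sets, all below the higher background level on every array. The other four gave differences between -0.14 and 0.11, and the same intensity was deposited for several arrays in each of them.

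**Figure D3:**
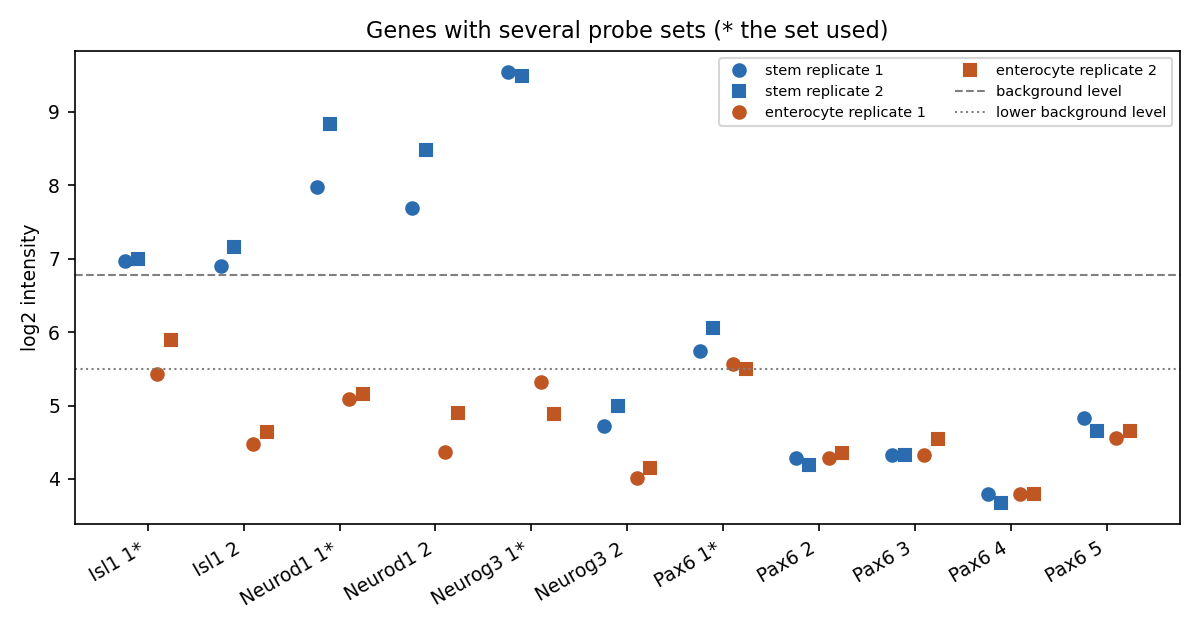
Log2 intensity (y axis) on each array for every probe set (x axis) of Isl1, Neurod1, Neurog3 and Pax6, with an asterisk on the probe set used. Circles are replicate 1, squares are replicate 2, and the lines mark the background levels at 6.78 and 5.50. The second Neurog3 probe set and all 5 Pax6 probe sets lie under the dashed line.

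The stem replicates leaned in a single direction in these genes. Of the 10 genes 9 were higher in stem replicate 2 than in stem replicate 1, with a median gap of 0.30 on the log2 scale. Among all genes 40.9% were higher in stem replicate 2, and the median gap was 0. Neurod1 (0.85) and Chga (0.64) had the widest gaps, and Neurog3 was the exception at -0.05. With a pair of arrays this is a description without a test.

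Markers of Paneth and goblet cells leaned the same way, as did lists of cells from outside the crypt epithelium, whereas stem cell markers leaned the other way. Of 6 Paneth cell markers 5 were higher in stem replicate 2 and 0 lower, and their summed intensity was 34924 in stem replicate 1 and 48590 in stem replicate 2. Of 11 goblet cell markers 7 were higher there, with sums of 38069 and 45068. Of 11 stem cell markers only 1 was higher, with sums of 35718 and 29798. Lymphocyte markers (10 of 12), stromal and muscle markers (10 of 12) and genes of other organs (18 of 28) were also higher in stem replicate 2 more often than lower. The part of these differences in the endocrine values was not tested. On the enterocyte arrays the Paneth sum was 748 in replicate 1 and 6157 in replicate 2 and the goblet sum 1160 and 3296. Chgb was likewise higher in enterocyte replicate 2, but of the 10 endocrine genes 5 were higher there and 5 lower.

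The genes that define the labels were read on each array. Lgr5 had intensities of 2572 and 1990 on the stem arrays and 120.8 and 68.1 on the enterocyte arrays, and Atoh1 172.9 and 209.4 against 33.4 and 38.7. The stem cells were isolated as Lgr5(hi), so Lgr5 is no independent check of that label. Cell type changed with genotype, so low Atoh1 does not test the knockout label by itself. All 11 measured stem cell markers fell and all 10 measured enterocyte markers rose. Of the other crypt lists, 9 of 11 goblet cell markers fell at a median of -4.05 and 3 of 6 Paneth cell markers at a median of -2.99, so falls like those of the endocrine genes were also seen in these lists. The sorted stem arrays nevertheless held Paneth, goblet and endocrine transcripts, as given above. Lymphocyte markers rose in 10 of 12 cases, with sums of 670 and 929 on the stem arrays and 8765 and 11831 on the enterocyte arrays. Array medians ran from 102.4 to 110.6 intensity units.

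Neuronal transcripts were examined because neurons share granule and transcription factor genes with endocrine cells. All 14 measured neuronal markers lay below the higher background level on every array. Their summed intensity ran from 431 to 447 on the stem arrays and from 430 to 438 on the enterocyte arrays. Among them 1 fell and 1 rose, at a median of 0.03. Nefm, a neurofilament subunit, had a log2 difference of -0.80 at intensities of at most 55.3. Stmn3, a stathmin, had 0.36 at intensities of at most 36.7, and its difference turned to -0.42 when arrays were centred on reference genes.

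Of 15 other transcription factors of endocrine development, 7 fell and 1 rose, and the remaining 7 missed the threshold, at a median of -0.40, beside 22.4% of all genes lower and 18.2% higher. On no array did 7 of these 15 lie above the higher background level, so the median includes dim genes. The largest falls were in Sox4, Foxa2, Mnx1 and Bhlha15. Sox4, an HMG-box factor also active in other progenitors, fell 4.71-fold, from 6276 and 5875 to 1233 and 1346 (log2 difference -2.24 ± 0.08 SE; limma adjusted p = 0.00271). Foxa2, a forkhead factor of gut endoderm, fell 3.98-fold, from 495 and 609 to 168.4 and 112.9. Mnx1, a homeobox gene, was at least 2.03-fold lower. Bhlha15, a factor of secretory cells, fell 2.77-fold, but its dimmest probe set gave a difference of 0.

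Pdx1, a homeobox factor of duodenal epithelium as well as endocrine cells, went the other way. It rose from 283 and 242 to 475 and 577 (log2 difference 1.00 ± 0.15 SE; limma adjusted p = 0.0189). With reference gene centring its difference was 0.22 and no longer passed.

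Of 30 other genes of granules, amine synthesis and regulated secretion, 7 fell and 3 rose while 20 missed the threshold, at a median of -0.10. These shares are near or below the 22.4% of all genes lower and 18.2% higher. However, 19 of the 30 lay above the higher background level on no array, so the median includes many dim genes. Tph1, which makes serotonin in enterochromaffin cells, had intensities of 110.9 and 190.1 on the stem arrays and 15.9 and 18.7 on the enterocyte arrays. It was at least 1.32-fold lower, with a log2 difference of -3.08 ± 0.32 (SE; limma adjusted p = 0.00933). Rab3d, a GTPase of secretory vesicles, fell 3.72-fold, but the dimmest of its probe sets gave -0.13 and missed the threshold. Stx1a, a syntaxin of vesicle fusion, was at least 2.28-fold lower. Its value came from a probe set that may cross-hybridise, and without such probe sets the difference was 0. Cpn1, a carboxypeptidase subunit, was at least 1.498-fold lower.

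The rises were in Gch1, Ddc and Pam. Gch1, which makes the cofactor of tryptophan hydroxylase, was at least 11.6-fold higher (log2 difference 3.68 ± 0.24 SE). The dimmest Gch1 probe set gave 1.90 and missed the threshold. Ddc, the aromatic amino acid decarboxylase, rose 5.33-fold, from 1007 and 941 to 4361 and 6175. Pam, which amidates peptide hormones, had a log2 difference of 1.36 and stayed below the higher background level. Tph1 and Ddc, which act in turn in serotonin synthesis, thus moved in opposite directions.

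Of 14 gut hormone genes 4 fell, 0 rose and 10 did not pass, at a median of -0.10, a share not far from the 22.4% of all genes lower. However, 6 of the 14 lay above the higher background level on no array, and only 7 lay above it on both stem arrays. The count and the median thus include genes too dim to show a fall. Gip was at least 25.5-fold lower, Tac1 at least 6.97-fold, Gcg at least 2.88-fold and Ghrl at least 2.78-fold.

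**Figure D4:**
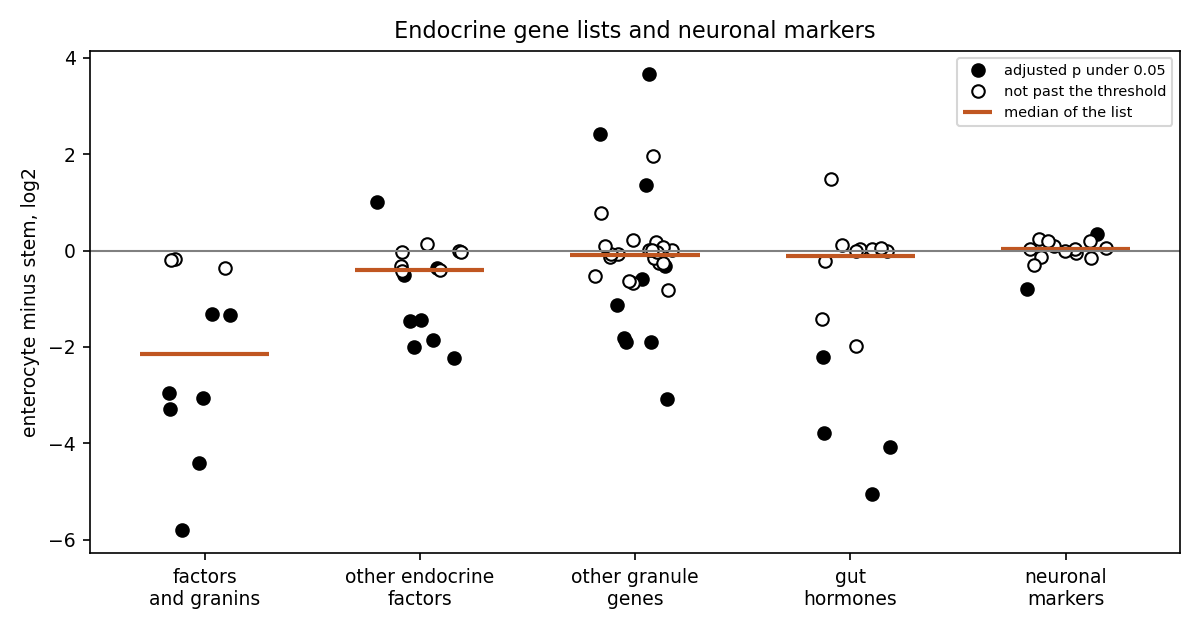
Log2 difference, enterocyte minus stem (y axis), of each gene of 5 lists (x axis), with filled points past an adjusted p of 0.05 by limma, open points not past it and a bar at the median of each list. The 10 lineage factors and granule genes have a median of -2.14, and the medians of the other four lists lie between -0.40 and 0.03. Above the higher background level on no array were 4 of the 10 genes and 7 of the 15 other factors. So were 19 of the 30 granule genes, 6 of the 14 hormones and all 14 neuronal markers. The lists thus differ in detection, and their medians are not on an equal footing. Lists of other crypt cells, not drawn here, had medians of -4.05 (goblet), -2.99 (Paneth) and -2.51 (stem).

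The scaling of the arrays bore on the genes near 0. Centring each array on the median of 9 reference genes shifted all differences by -0.78. All 10 genes then fell, Pax4, Pax6 and Pcsk1 included, as did 77.2% of all genes, and the split of all calls moved from 55.2% lower to 89.1% lower. Of these 9 reference genes 1 fell and 4 rose in the data as deposited. Centring on the median of all genes gave 40.7% of calls lower and left the same 7 of the 10 genes past the threshold.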

How the data were processed

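Affymetrix arrays were used, 1 for each of 4 samples, 2 per group. The authors deposited normalized intensity values, linear in scale and between 7.93 and 41704. RMA is named in the submitters' processing notes. Its version and the set of arrays normalized together are not stated there. The planned log2 scale was reached by taking log2 with no pseudocount. Of 22690 probe sets, 64 control sets were left out, and the platform annotation gave 1 symbol for 20380, several for 691 and did not list 1606. The probe set with the highest mean stood for each of 12393 genes. Groups were compared with lmFit and eBayes of limma 3.58.1 (R 4.3.3; 2 residual and 1.23 prior degrees of freedom), two-sided, with Benjamini-Hochberg adjustment. Replicates held identical values in 10.2% of genes in the stem and 8.46% in the enterocyte group, which lowers the spread. The number of arrays limits the precision. The genes and lists were chosen with earlier results of these data known. Named genes were the 10 listed, Atoh1, Lgr5 and, in each list, up to 4 of the largest changes each way past the threshold (3 for neuronal markers). The fit was tested on simulated data with known changes. It recovered 2%, 32%, 72% and 92% of falls of 0.5, 1, 2 and 4 on the log2 scale, with 3 false calls. Only 50 genes were changed per size, far fewer than were called in the data, so these shares need not hold here. Alternatives covered scaling, choice of probe set, dim genes, pseudocount, replicate block, eBayes trend, array weights and leaving out each array. No column was without a sample (0).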

Additional observations from a re-analysis of the deposited data

How the results depend on the processing

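Neurog3, Neurod1, Nkx2-2, Isl1, Chga and Chgb kept their direction and their side of the threshold in all 13 alternatives that kept every array, and Insm1 in its 12. Many of these could not change a direction. The replicate block, eBayes trend, array weights and the filter on dim genes left each difference as it was. For Insm1, Nkx2-2, Chga and Chgb, with 1 probe set each, neither could the choice of probe set change it. The number of alternatives is therefore no measure of robustness. Leaving out 1 array gave 0 to 3 of the 10 genes lower and medians from -2.37 to -1.97. It gave 0 to 1058 of all genes lower and 0 to 663 higher. Other endocrine factors then had 0 to 3 lower and 0 higher, other granule genes 0 to 1 lower and 0 to 1 higher, and hormones 0 to 2 lower. The lone array is assumed to vary like the other group. With reference gene centring 9567 of all genes were lower and 1173 higher, the median of the 10 genes was -2.92, 14 other factors were lower and 0 higher, 25 granule genes and 13 hormones were lower, and Stmn3 turned to -0.42. Centring on reference gene differences, chosen after seeing the data, gave 8232 lower and 1409 higher, -2.68, 14 and 0 factors, 23 granule genes, 12 hormones and -0.18 for Stmn3. Median centring gave 3574 of all genes higher, -1.92, and 2 factors, 6 granule genes and 1 hormone higher. Quantile normalization gave 5 granule genes and 1 hormone higher. The median of the 10 genes was -1.90 on the dimmest probe sets and -1.72 with log2(value + 16). It was -3.17 without genes below background, where 6 of the 10 and 11 granule genes (4 lower) were left. Those 6 passed this filter through their stem means only. Lower enterocyte values were thus built into that setting, and its median gives no support. Causes were not tested beyond the construction of each setting.

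Same-numbered samples deviated together with a correlation of only 0.05, so the numbers were not taken to pair them. With the replicate block 7 of the 10 genes were lower, as were 2557 of all genes, with 2010 higher.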
